A study of Mus musculus with 5 samples.

Results

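The transcripts of 10 myeloid C-type lectin receptors (Clec4a1, Clec4a2, Clec4a3, Clec4d, Clec4e, Clec4n, Clec5a, Clec7a, Clec12a, and Clec10a) were examined in bone marrow-derived macrophages (BMDMs) after coculture with 4T1 cells, a mouse mammary carcinoma cell line. The receptors were chosen by name, as members of the family known from macrophages, monocytes, and neutrophils, and all 10 were found among the 17058 genes of the RNA-Seq libraries. The BMDMs came from Balb/c mice and carried their own intact Adam17. They were cultured for 48 hours with either WT 4T1 cells or 4T1 cells in which the protease gene Adam17 was knocked out, and a porous membrane kept the cell types apart. There were 2 libraries from WT cocultures and 3 from Adam17-/- cocultures, and the Adam17-/- libraries all carried the same knock-out designation, so the cancer cells of that group stand for a single edited line. The labels do not say whether the libraries of a group came from separate cultures, so the p-values measure only the spread between these samples.

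C-type lectin receptors are surface proteins with a carbohydrate-recognition fold, and myeloid cells use them to sense fungi, mycobacteria, and damaged cells. Activating members either carry a tyrosine motif of their own or pair with the adaptor FcRγ or DAP12, and both routes recruit the kinase Syk and, downstream, the adaptor Card9. Inhibitory members carry an ITIM, a motif that recruits tyrosine phosphatases such as SHP-1. Endocytic members, such as the galactose-type lectin Clec10a and the mannose receptor Mrc1, bind glycans for uptake.

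The libraries held 14658694 to 20788373 expected counts, which are estimated read counts per transcript, summed here per gene. Levels are given as TMM-normalized CPM, which are counts scaled to the size of the library, where 3 counts equal 0.157 to 0.197 CPM. All 10 receptors lay above this in every library. Of 9 macrophage marker genes, 7 fell and 0 rose in Adam17-/- cocultures, and their summed FPKM (a level per transcript length) was 16558 and 16641 after WT coculture and 11570 to 12524 after Adam17-/- coculture. Of 13 neutrophil marker genes, 11 rose and 0 fell, with a summed FPKM of 1183 and 1236 after WT coculture and 3069 to 3459 after Adam17-/- coculture. Among the 11 was Camp, with 7 and 2 counts after WT coculture and 18, 13, and 22 after Adam17-/- coculture. Camp passed the filter on low counts only through the Adam17-/- libraries, so it is given by its counts alone. Of 7 monocyte marker genes, 4 rose and 2 fell. Of 8 epithelial marker genes, Epcam, Krt19, Krt14, and Krt5 had at most 1 count in any library, Cldn4, Krt8, and Krt18 at most 8, and Cdh1 had 173 to 242, with overlapping groups. In bulk RNA, fewer cells of a type and less RNA per cell cannot be told apart.

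In Adam17-/- cocultures, 2 receptors rose, 5 fell, and 3 did not pass the test (edgeR quasi-likelihood test over 12576 genes, Benjamini-Hochberg adjusted p of 0.05 or less). The β-glucan receptor Clec7a and the inhibitory receptor Clec12a rose, whereas Clec4n, Clec4d, Clec4e, Clec4a2, and Clec10a fell, each by less than a log2 fold change of 1. Across all genes tested, 31.7% passed, 14.9% with a higher level and 16.8% with a lower level. Among the 3144 most abundant genes, which held 4 of the receptors, 30.4% passed with a lower level and 12.7% with a higher level. With a log2 fold change of 1 or more asked for as well, 1 receptor, Clec7a, was called, as were 3.36% of all genes in the higher direction and 0.867% in the lower direction. The libraries of the groups did not overlap for 8 receptors, 2 of them higher and 6 lower in Adam17-/- cocultures, compared with 58.1% of all genes (28.4% higher and 29.7% lower). The median log2 fold change was -0.31 over the 10 receptors and 0.01 over all genes.

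**Figure D1:**
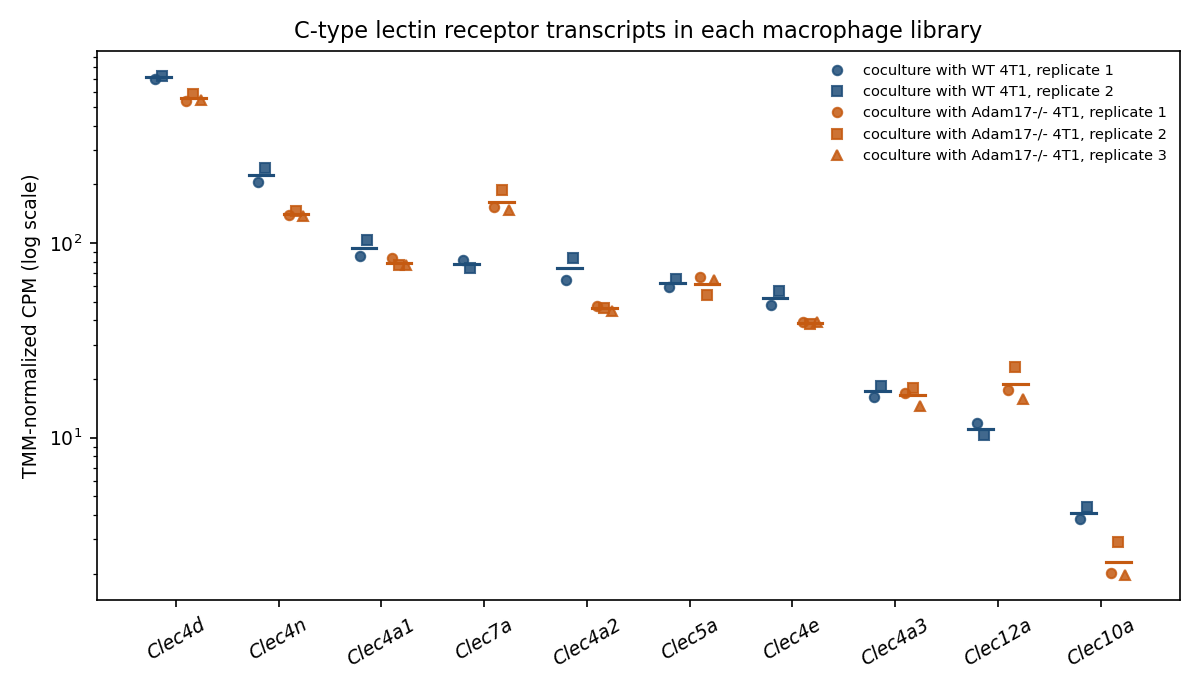
TMM-normalized CPM (log axis) of the 10 receptors in each library, with WT cocultures in blue and Adam17-/- cocultures in orange. Points are libraries, with the replicate number shown by shape, and short lines are group means. Clec7a and Clec12a are higher in all 3 Adam17-/- libraries than in both WT libraries, the libraries of Clec5a and Clec4a3 overlap, and the other 6 receptors are lower.

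Clec7a (gene ID 56644, GRCm38 chr6:129461591-129472785) encodes dectin-1, which binds β-glucans of fungal walls and signals through Syk by its own tyrosine motif. It stood at 82.1 and 74.2 CPM after WT coculture and 153, 187, and 148 CPM after Adam17-/- coculture. All Adam17-/- libraries were thus well above both WT libraries, with replicate 2 the highest. The group means were 78.1 ± 5.56 CPM (SD, n = 2) and 163 ± 21.3 CPM (SD, n = 3), with a log2 fold change of 1.06 (SE 0.116, 95% interval 0.80 to 1.32, edgeR adjusted p = 0.000532). This log2 fold change was larger than that of 96.1% of the genes tested, and it passed the test in all 14 alternative analyses, at 0.97 to 1.21. Its log2 fold change was under 1 without WT replicate 2, where no receptor met the stricter call, and without Adam17-/- replicate 2 (0.97), where Clec10a was called instead (-1.02, edgeR adjusted p = 0.0221).

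**Figure D2:**
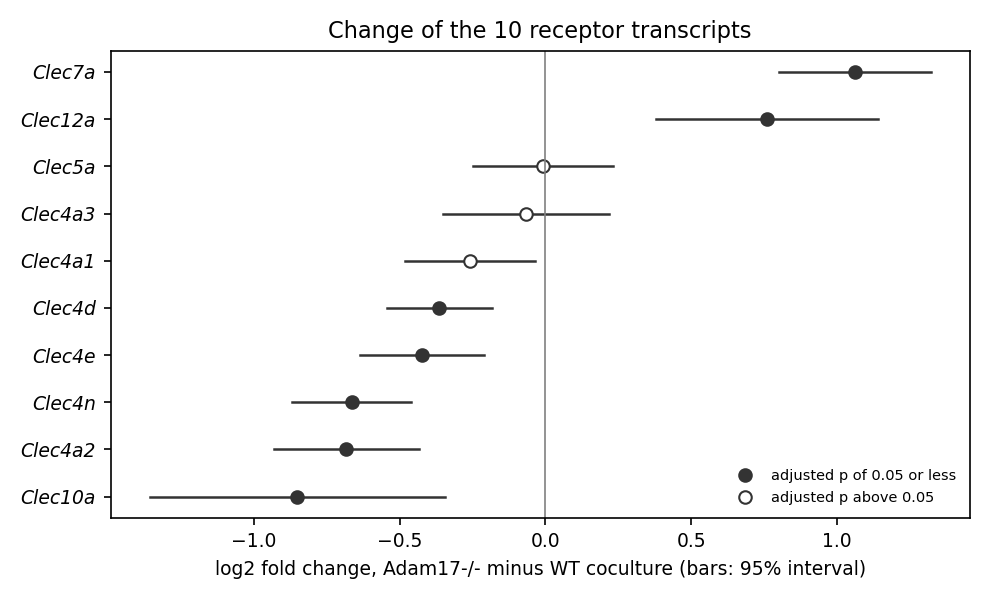
Log2 fold change (Adam17-/- minus WT coculture) of the 10 receptors from the edgeR fit, with 95% intervals as bars. Filled circles passed the test, and the values run from -0.85 for Clec10a to 1.06 for Clec7a.

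Dectin-1 exists in a long form with a stalk below the lectin domain and a short form without it, and the proportions of the forms are known to differ between mouse strains. The deposited tables list Clec7a transcripts with and without an internal exon of 135 bases, exon number 3 (GRCm38, on chromosome 6). GENCODE annotates the transcript with this exon as a polymorphic pseudogene in the reference genome, which comes from another strain than Balb/c. The exon is shown in capitals with 12 bases of each neighboring exon in lower case, because it is the stretch by which the forms differ:
Clec7a with the alternative exon, chr6:129468869-129469003, minus strand: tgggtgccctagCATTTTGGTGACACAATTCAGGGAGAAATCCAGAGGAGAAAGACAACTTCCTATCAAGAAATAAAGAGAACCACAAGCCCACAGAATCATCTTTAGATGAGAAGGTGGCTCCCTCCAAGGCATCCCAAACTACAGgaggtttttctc
Clec7a without it, joined flanks: tgggtgccctaggaggtttttctc

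Both forms of Clec7a were higher in Adam17-/- cocultures. Transcripts with the exon stood at 19.4 and 21.2 FPKM after WT coculture and at 41.1, 56.6, and 43.7 FPKM after Adam17-/- coculture. The transcript without it stood at 15.6 and 11.7 FPKM after WT coculture and at 33.6, 33.4, and 27.3 FPKM after Adam17-/- coculture. Transcripts with the exon took 56.9% and 65.8% of the Clec7a counts in WT cocultures and 56.6%, 64.4%, and 63.0% in Adam17-/- cocultures, so the groups overlapped in this share. These counts were divided among transcripts by an estimate, whose error is not given in the tables. The gene Gm45969, a long noncoding RNA that overlaps Clec7a, had 0 counts.

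**Figure D3:**
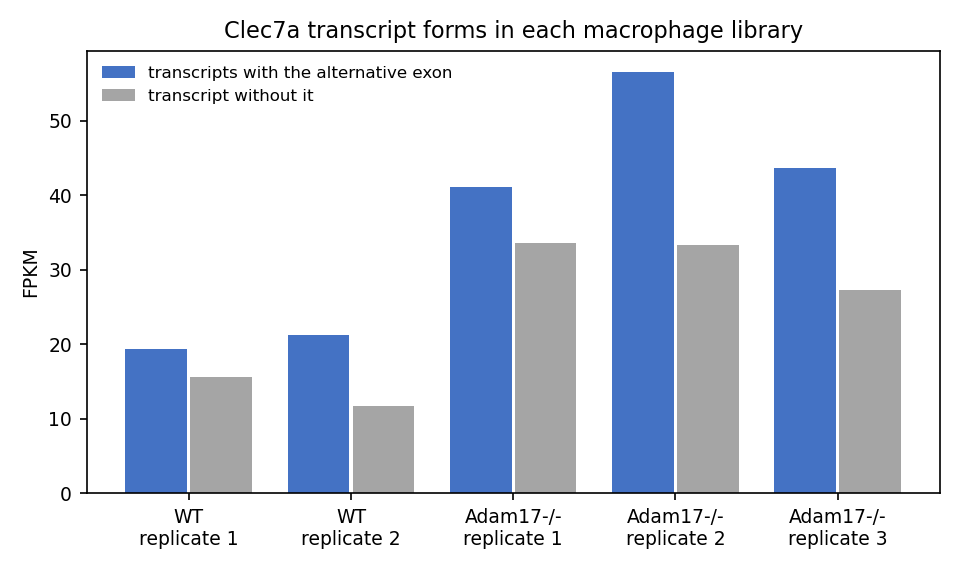
FPKM of Clec7a transcripts with the alternative exon (blue bars) and without it (gray bars) in each of the 5 libraries. Both kinds are higher in the 3 Adam17-/- libraries, whereas the share of counts on transcripts with the exon overlaps between the groups (56.6% to 65.8%).

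Of the receptors that signal through FcRγ, Clec4n, Clec4d, and Clec4e all fell. Clec4n (gene ID 56620, chr6:123229843-123247024) encodes dectin-2, a receptor for fungal mannans, and was at 205 and 241 CPM after WT coculture and at 139, 146, and 137 CPM after Adam17-/- coculture. The Adam17-/- libraries lay close together and below both WT libraries. The log2 fold change was -0.66 (SE 0.0909, 95% interval -0.87 to -0.46, edgeR adjusted p = 0.00114), and it passed the test in all 14 alternative analyses, at -0.78 to -0.50.

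Clec4d (gene ID 17474, chr6:123262107-123275268) encodes MCL, which pairs with Mincle and binds mycobacterial cord factor, and it was the most abundant receptor of the set. It was at 699 and 723 CPM after WT coculture and 537, 580, and 542 CPM after Adam17-/- coculture. Clec4e (gene ID 56619, chr6:123281789-123289871), which encodes Mincle, a receptor for cord factor and for a protein released by dying cells, was at 48.0 and 56.4 CPM after WT coculture and at 39.1, 38.4, and 39.3 CPM after Adam17-/- coculture. For both genes the groups were separate. The log2 fold changes were -0.36 for Clec4d (SE 0.0805, edgeR adjusted p = 0.00904) and -0.42 for Clec4e (SE 0.0949, edgeR adjusted p = 0.00947). Clec4d passed in 8 of 14 alternatives and Clec4e in 7, and the calls did not hold with library size as the only scaling, where the log2 fold change was -0.22 for Clec4d (edgeR adjusted p = 0.0621) and -0.28 for Clec4e (0.0662). Without Adam17-/- replicate 1 the calls were lost at log2 fold changes of -0.32 and -0.41 (0.0721 and 0.0605), and without replicate 3 at -0.33 and -0.41 (0.0528 and 0.0516). Nor did they hold with limma on log2(FPKM + 0.1), at -0.22 for Clec4d (adjusted p = 0.0831) and -0.27 for Clec4e (0.0785), or on log2(FPKM + 1), at -0.22 (0.0840) and -0.26 (0.0812). Without Adam17-/- replicate 2, the Clec4e call was also lost, at a log2 fold change of -0.40 and an edgeR adjusted p of 0.0578.

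Among the receptors with an ITIM, Clec4a2 fell and Clec12a rose. Clec4a2 (gene ID 26888, chr6:123122690-123143999) encodes DCIR, an inhibitory receptor of dendritic cells and macrophages, and was at 64.7 and 83.4 CPM after WT coculture and at 47.3, 46.4, and 44.7 CPM after Adam17-/- coculture. The WT libraries differed from each other by more than the Adam17-/- libraries did, and both lay above all of them. The log2 fold change was -0.68 (SE 0.111, 95% interval -0.93 to -0.43, edgeR adjusted p = 0.00232), and it passed in all 14 alternatives, at -0.86 to -0.49.

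Clec12a (gene ID 232413, chr6:129349783-129365303) encodes MICL, an inhibitory receptor of granulocytes and monocytes that recognizes dead cells through uric acid crystals. It was at 11.8 and 10.3 CPM after WT coculture and at 17.5, 23.1, and 15.8 CPM after Adam17-/- coculture. As for Clec7a, replicate 2 was the highest of the Adam17-/- libraries and replicate 3 the lowest. The log2 fold change was 0.76 (SE 0.169, 95% interval 0.38 to 1.14, edgeR adjusted p = 0.00922), and it passed in all 14 alternatives, at 0.61 to 0.91. Neutrophil markers moved in the same direction as Clec7a and Clec12a, as the summed levels above show. Adam17-/- replicate 2 stood apart for the granule genes Mpo and Elane. Mpo was at 63.2 CPM there, against 14.4 and 18.5 CPM in replicates 1 and 3. Elane was at 37.0 CPM, against 14.6 and 15.2 CPM. Among the Adam17-/- libraries, 6 of the 13 markers were highest in replicate 1, 5 in replicate 2, and 2 in replicate 3. Ltf (83.4, 107, and 75.3 CPM in replicates 1 to 3), Ngp (175, 208, and 156 CPM), and Csf3r (582, 599, and 517 CPM) had the same order as Clec7a and Clec12a. S100a8 (232, 227, and 207 CPM) and S100a9 (683, 630, and 625 CPM) were highest in replicate 1. Without Adam17-/- replicate 2 the log2 fold change was 0.97 for Clec7a and 0.61 for Clec12a, and both passed. The part of these markers in the results was not tested.

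Clec4a1 (gene ID 269799, chr6:122921848-122934619) and Clec4a3 (gene ID 73149, chr6:122952515-122969878), which are close relatives of Clec4a2, did not pass the test. Clec4a1 was at 85.7 and 104 CPM after WT coculture and at 83.5, 76.8, and 77.2 CPM after Adam17-/- coculture, so the groups were separate by a narrow margin. Its log2 fold change was -0.26 (SE 0.10, 95% interval -0.48 to -0.03, edgeR adjusted p = 0.0748). Without WT replicate 1, which was the lower of the WT libraries, it was -0.39 with an edgeR adjusted p of 0.00229, whereas without WT replicate 2 it was -0.12 (0.255) and with library size only -0.11 (0.446). Clec4a3 ranged from 14.5 to 18.3 CPM over the 5 libraries, with a log2 fold change of -0.07 (95% interval -0.35 to 0.22).

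Clec5a (gene ID 23845, chr6:40574898-40585805) encodes MDL-1, which pairs with the adaptors DAP12 and DAP10 and is a receptor for dengue virus. It was at 59.3 and 65.0 CPM after WT coculture and at 66.7, 54.0, and 64.6 CPM after Adam17-/- coculture, so the groups overlapped. The log2 fold change was -0.01 (SE 0.107, 95% interval -0.25 to 0.23, edgeR adjusted p = 0.961). For Clec5a and Clec4a3 the sign of the estimate changed with the scaling.

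Clec10a (gene ID 17312, chr11:70166623-70170836) encodes MGL1, a lectin for galactose and N-acetylgalactosamine that is used as a marker of alternatively activated macrophages. It was the least abundant of the receptors, with 73 and 81 counts after WT coculture and 37, 44, and 37 counts after Adam17-/- coculture. On the CPM scale these were 3.82 and 4.38 against 2.03, 2.89, and 1.96, with no overlap. The log2 fold change was -0.85 (SE 0.226, 95% interval -1.36 to -0.35, edgeR adjusted p = 0.0192). It passed in 10 of 14 alternatives, its log2 fold change ran from -1.02 to -0.48 (limma on log2(FPKM + 1)) over all of them, and the losses included the fits without WT replicate 2 (-0.75, edgeR adjusted p = 0.0540), without Adam17-/- replicate 1 (-0.75, 0.0793), and without Adam17-/- replicate 3 (-0.73, 0.0784).

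Compared per transcript length, Clec4d was the most abundant receptor in both groups, at a mean of 528 ± 29.5 FPKM (SD, n = 2) in WT cocultures and 454 ± 18.5 FPKM (SD, n = 3) in Adam17-/- cocultures. In WT cocultures it was followed by Clec4n (181 FPKM), Clec4a1 (58.5 FPKM), Clec7a (34.0 FPKM), Clec4a2 (28.7 FPKM), Clec4e (20.0 FPKM), Clec5a (15.7 FPKM), Clec4a3 (12.9 FPKM), Clec12a (4.82 FPKM), and Clec10a (2.70 FPKM), and of these neighbors only the libraries of Clec7a and Clec4a2 overlapped. In Adam17-/- cocultures, Clec7a stood above Clec4a1 in all 3 libraries, at a mean of 78.6 FPKM against 54.0 FPKM, and Clec4a2 followed at 19.9 FPKM. There, only the libraries of Clec5a (17.3 FPKM) and Clec4e (16.5 FPKM) overlapped, and Clec4a3 (13.7 FPKM), Clec12a (9.07 FPKM), and Clec10a (1.66 FPKM) kept the last places. Clec4n was at 127 FPKM.

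The FPKM summed over the 10 receptors was 831 and 941 after WT coculture and 782, 828, and 764 after Adam17-/- coculture, so the total was lower in each Adam17-/- library, by a narrow margin. Clec4d made up 56.7% to 61.0% of this sum in every library. Clec7a made up 4.21% and 3.50% in WT cocultures and 9.56%, 10.9%, and 9.30% in Adam17-/- cocultures, and Clec4n made up 19.4% and 21.3% against 16.1%, 15.9%, and 16.1%. The FPKM ratio of Clec7a to Clec4n, which is free of any scaling between libraries, was 0.217 and 0.165 in WT cocultures and 0.593, 0.684, and 0.578 in Adam17-/- cocultures. By contrast, the ratio of Clec4e to Clec4d, the partner chains, was 0.0355 and 0.0403 against 0.0376, 0.0341, and 0.0375, and the groups overlapped. The ratio of Clec4a2 to its relative Clec4a1 was 0.473 and 0.505 in WT cocultures and 0.355, 0.382, and 0.366 in Adam17-/- cocultures.

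The shares of other receptor transcripts are given as a description. Of the Clec4n counts, the transcript that lacks the 102-base exon number 3 took 12.3% and 16.3% in WT cocultures and 19.5%, 22.4%, and 19.4% in Adam17-/- cocultures, and the full-length transcript took correspondingly less. The Clec4a2 transcript with an additional exon of 72 bases took 34.4% and 33.4% of the counts in WT cocultures and 20.9%, 26.7%, and 22.4% in Adam17-/- cocultures. For Clec5a, the transcript with an additional exon of 75 bases took 47.7% and 57.8% against 57.6%, 58.6%, and 55.4%, with overlap. In all, 3 of 11 transcript shares in 5 receptor genes did not overlap between the groups, of which 2 were the complementary shares of Clec4n. This was no more than the 31.9% of 4699 transcript shares over all genes with 100 or more counts. An exact permutation test of 2 against 3 libraries cannot go below p = 0.1, so no test is given for these shares.

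On the GRCm38 genome, the receptors other than Clec10a, which lies on chromosome 11, lie on chromosome 6, and several neighbors there changed in the same direction. Both stretches described here were chosen after their values had been seen. The stretch from Clec4a1 to Clec4e (chr6:122921848-123289871, 368024 bases) holds 9 protein-coding genes, of which 7 were tested, namely Clec4a1, Clec4a3, Clec4a2, Clec4b2, Clec4n, Clec4d, and Clec4e. Of these, 4 fell, compared with 16.8% of all genes tested. Clec4b2 had 2 counts in each WT library and 13, 13, and 6 counts after Adam17-/- coculture, so it passed the filter on low counts only through the latter. It is therefore given by its counts alone. The count of genes that fell in this stretch was between 2 and 5 over the alternatives.

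The stretch from Clec12a to Clec7a (chr6:129349783-129472785, 123003 bases) holds 6 protein-coding genes, of which 5 were tested. Here 4 rose and 0 fell, compared with 14.9% and 16.8% of all genes tested. The count of 4 was found in all 14 alternatives, which reuse the same libraries. The genes that rose beside Clec12a and Clec7a were Clec1b, which encodes CLEC-2, the podoplanin receptor of platelets and some myeloid cells, and Clec9a, which encodes DNGR-1, a dendritic cell receptor for actin of dead cells. Clec1b had 45 and 25 counts after WT coculture and 84, 122, and 115 after Adam17-/- coculture, a log2 fold change of 1.73 (SE 0.302, edgeR adjusted p = 0.00321). Clec9a had 51 and 42 counts against 142, 87, and 109, a log2 fold change of 1.38 (SE 0.211, edgeR adjusted p = 0.00176). Clec1a, the other tested gene between them, had 5 and 3 counts against 11, 9, and 8 and is given by its counts alone. Of 10 dendritic cell marker genes, 7 were tested and 3 rose (Ccr7, Kit, and Ccl22), whereas Flt3, Xcr1, Dpp4, and Cd209a did not pass. Their summed FPKM was 13.5 and 7.54 after WT coculture and 29.2, 21.8, and 21.4 after Adam17-/- coculture, and their part in these results was not tested. Kit had 23 and 10 counts after WT coculture, near the limit of the filter on low counts, and 40, 23, and 36 after Adam17-/- coculture.

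**Figure D4:**
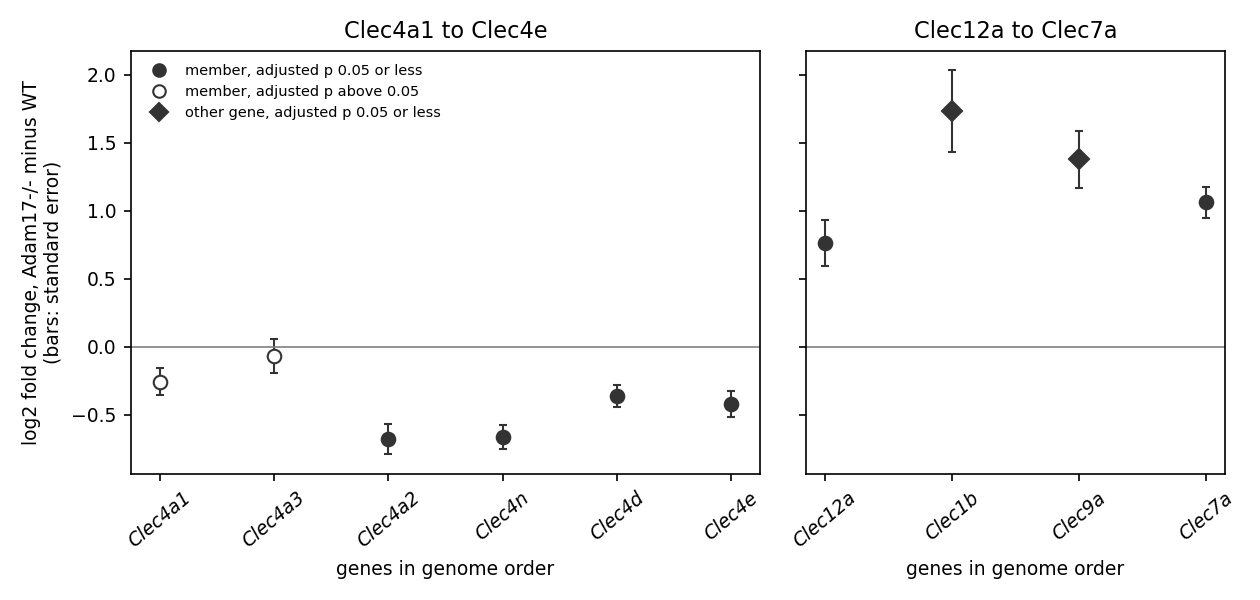
Log2 fold change (Adam17-/- minus WT coculture, bars are standard errors) of the tested genes in genome order, for the stretch from Clec4a1 to Clec4e (left) and the stretch from Clec12a to Clec7a (right). Circles are receptors of the set, diamonds are other genes, and filled symbols passed the test. Clec4b2 and Clec1a, with at most 13 counts in any library, are left out. The plotted values lie below 0 on the left and between 0.76 and 1.73 on the right.

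RefSeq promoters (assembly GRCm38.p6, 250 bases before to 50 after the start) were found for 8 of the 10 receptors, 10 promoters in all, since Clec4a3 and Clec7a have 2 each. They are shown for the genes that rose, Clec7a and Clec12a, and for Clec4d and Clec4e, the partner chains that fell and whose genes lie next to each other on opposite strands. Capitals mark the ETS core motif GAGGAA, which factors such as PU.1 can bind, and a loose C/EBP motif TTNNGNAA, each on either strand and none overlapping in these promoters:
Clec7a promoter, chr6:129472730-129473029, minus strand: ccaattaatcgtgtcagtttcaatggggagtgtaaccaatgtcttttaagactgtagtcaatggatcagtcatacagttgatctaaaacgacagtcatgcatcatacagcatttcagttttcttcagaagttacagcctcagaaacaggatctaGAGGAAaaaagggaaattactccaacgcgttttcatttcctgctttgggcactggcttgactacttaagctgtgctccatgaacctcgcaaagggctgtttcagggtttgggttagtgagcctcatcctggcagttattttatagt
Clec12a promoter, chr6:129349994-129350293, plus strand: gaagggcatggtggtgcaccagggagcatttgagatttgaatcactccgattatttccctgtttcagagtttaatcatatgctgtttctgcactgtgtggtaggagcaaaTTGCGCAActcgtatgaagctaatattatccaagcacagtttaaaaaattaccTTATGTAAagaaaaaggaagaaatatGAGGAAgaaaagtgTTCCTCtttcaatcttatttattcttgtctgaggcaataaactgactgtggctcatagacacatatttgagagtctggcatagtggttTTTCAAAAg
Clec4d promoter, chr6:123261857-123262156, plus strand: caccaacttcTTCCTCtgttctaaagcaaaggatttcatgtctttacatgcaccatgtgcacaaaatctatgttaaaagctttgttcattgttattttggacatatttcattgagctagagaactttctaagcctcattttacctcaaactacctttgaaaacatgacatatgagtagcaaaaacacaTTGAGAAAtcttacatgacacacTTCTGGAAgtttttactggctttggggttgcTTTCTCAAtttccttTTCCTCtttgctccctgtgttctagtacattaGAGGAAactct
Clec4e promoter, chr6:123289822-123290121, minus strand: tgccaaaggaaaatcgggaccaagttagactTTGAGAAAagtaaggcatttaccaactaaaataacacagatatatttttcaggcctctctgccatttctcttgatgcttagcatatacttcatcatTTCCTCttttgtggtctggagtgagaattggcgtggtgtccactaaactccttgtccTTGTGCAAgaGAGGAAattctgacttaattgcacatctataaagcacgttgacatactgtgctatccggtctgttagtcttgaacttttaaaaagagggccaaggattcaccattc

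GAGGAA was present in 8 of 10 receptor promoters, the exceptions being that of Clec4a2 and 1 of Clec4a3, and in 28.3% of all 32851 RefSeq promoters of this length. By gene, this was 7 of 8. The 2 Clec7a windows are nearly the same stretch, so a site there enters the count of promoters 2 times. The Clec4a2 window lies at the start of a transcript that took 0% to 23.35% of that gene's counts. The start of its main transcript, with 50.0% to 79.1% of the counts, lies outside the window, and the sequence before it was not scanned. TTNNGNAA was present in 5 of 10 (Clec12a, Clec4a2, Clec4d, Clec4e, and Clec5a) and in 40.7% of all promoters. The Clec7a promoter held 1 GAGGAA and no TTNNGNAA, whereas the Clec12a promoter held 2 and 3, so in these windows the genes that rose did not share the latter. The Clec12a window lies inside the gene span given above and within exon 1 of its GENCODE transcript (chr6:129349964-129350511). The annotated starts of Clec12a thus differ, and the sequence before the other starts was not scanned. The STAT palindrome, TTC and GAA spaced by 4 bases, was present in 4 of 10 (Clec4a1, Clec5a, and both of Clec7a) and in 6.95% of all promoters. By gene, it was present in 3 of 8, since the Clec7a windows hold the same site. The AP-1 motif TGANTCA was present in 2 of 10 (Clec12a and Clec4a2) and in 7.81% of all promoters, and the NF-κB motif, GGG and TTCC spaced by 3 bases, in 0 of 10 and in 5.56%. These matches describe letters in the window and do not show binding.

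Of 19 genes that carry or restrain signals from these receptors, 2 rose and 6 fell, with a median log2 fold change of -0.05. Over all genes tested, 14.9% rose and 16.8% fell, and among the 3144 most abundant genes 12.7% rose and 30.4% fell. Among the adaptors, Tyrobp (DAP12, the partner of Clec5a) was at 488 and 471 CPM after WT coculture and at 350, 329, and 365 CPM after Adam17-/- coculture, a log2 fold change of -0.46 (SE 0.0812, edgeR adjusted p = 0.00332). Fcer1g (FcRγ, the partner of Clec4n, Clec4d, and Clec4e) was at 344 and 363 CPM against 317, 301, and 316 CPM. Its groups were separate, but the log2 fold change of -0.18 did not pass (95% interval -0.36 to -0.01, edgeR adjusted p = 0.102). Hcst, which encodes DAP10, was low, at 2.70 to 4.54 CPM, with overlapping groups.

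Syk, Prkcd, and Card9, which stand at the core of the pathway below dectin-1, did not pass the test. Syk was at 623 and 542 CPM after WT coculture and at 616, 654, and 607 CPM after Adam17-/- coculture, with a log2 fold change of 0.10 (95% interval -0.10 to 0.31), and it passed in 3 of 14 alternatives. The kinase gene Prkcd, with a log2 fold change of 0.04 (95% interval -0.17 to 0.25), and the adaptor gene Card9, at -0.05 (95% interval -0.27 to 0.18), also had overlapping groups. Malt1, the protease that works with Card9 and Bcl10, was 0.25 higher on the log2 scale (edgeR adjusted p = 0.0485), and Src, a kinase that can phosphorylate the receptors' motifs, was 0.41 higher (edgeR adjusted p = 0.00536). Plcg2, the phospholipase downstream of Syk, was lower by a log2 fold change of -0.53 (edgeR adjusted p = 0.00136), as were the kinase gene Lyn (-0.26) and the exchange factor gene Vav3 (-0.57). Of the phosphatases that inhibitory receptors recruit, Ptpn6 (SHP-1) was at 308 and 279 CPM after WT coculture and at 230, 250, and 237 CPM after Adam17-/- coculture, a log2 fold change of -0.29 (edgeR adjusted p = 0.0249). Inpp5d (SHIP-1) was lower by -0.41. The calls of Ptpn6 and Lyn held in 6 of 14 alternatives, that of Malt1 in 8, that of Vav3 in 12, those of Inpp5d and Src in 13, and those of Tyrobp and Plcg2 in all 14. With limma on log2(FPKM + 1), Vav3 was at -0.32 (adjusted p = 0.0879). All signaling genes named here other than the adaptors, Syk, Prkcd, Card9, and Ptpn6 were chosen after their values had been seen.

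**Figure D5:**
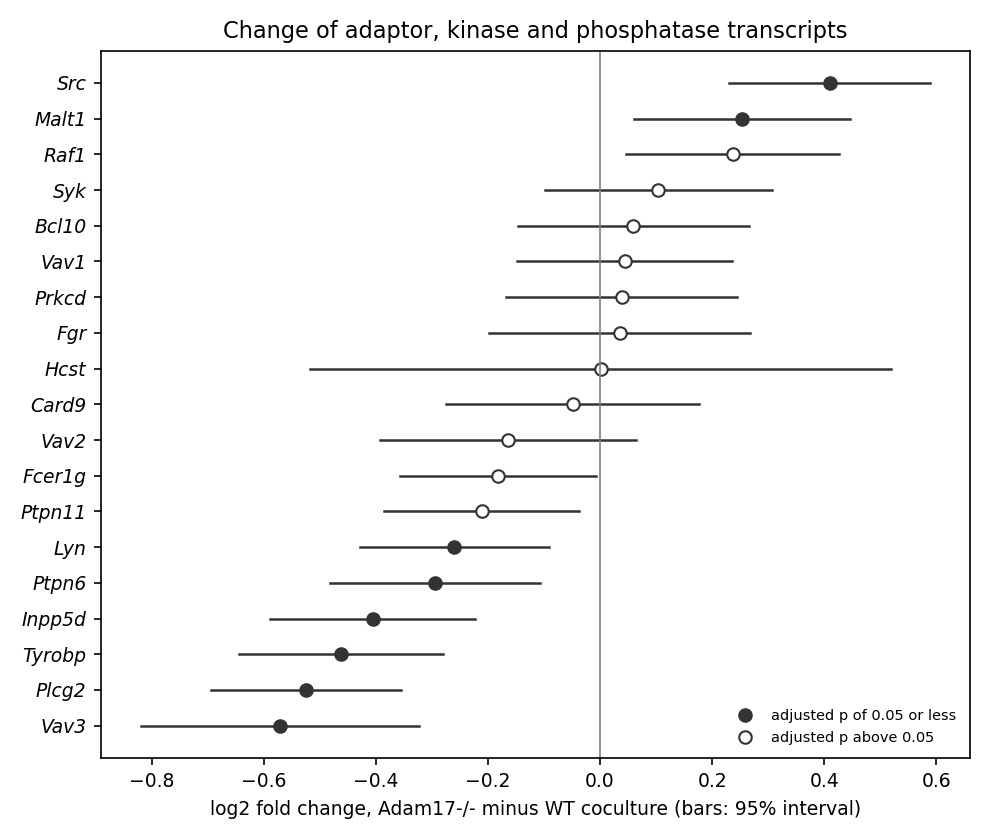
Log2 fold change (Adam17-/- minus WT coculture) of the 19 signaling genes from the edgeR fit, with 95% intervals as bars. Filled circles passed the test, with 2 on the higher side and 6 on the lower side. Syk, Card9, and Prkcd lie near 0.

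Of 17 genes of cytokines, enzymes, and transcription factors known to be induced through these receptors, 12 were tested, and 2 rose and 4 fell, with a median of -0.38. The shares over all genes tested were 14.9% higher and 16.8% lower. Il12b, which encodes a subunit of IL-12 and IL-23, was at 0.680 and 0.595 CPM after WT coculture and at 4.38, 4.41, and 2.75 CPM after Adam17-/- coculture, a log2 fold change of 2.57 (SE 0.326, edgeR adjusted p = 0.000842). Nos2, the inducible nitric oxide synthase, was at 45.2 and 44.5 CPM against 92.6, 87.6, and 94.3 CPM, a log2 fold change of 1.03. Tnf was at 30.8 and 21.2 CPM in WT cocultures and at 9.69, 10.3, and 10.2 CPM in Adam17-/- cocultures (-1.37, edgeR adjusted p = 0.000559). The neutrophil chemokine genes Cxcl1 (-1.19) and Cxcl2 (-0.99) and the cytokine gene Il1b (-0.60) fell as well. The Ccl3 groups overlapped (-0.40, edgeR adjusted p = 0.109), and its estimate rested on the WT libraries, at -0.12 (0.570) without WT replicate 1 and -0.63 (0.00432) without WT replicate 2. All of these genes respond to other receptors too, and the part of the lectin receptors in their levels was not tested.

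Of 40 other genes with a C-type lectin domain or a name of this family, 21 had at least 10 counts in every library, a filter that leaves out Clec4b2 and Clec1a. Of these, 6 rose and 4 fell, and under the same filter 32.8% of 11823 genes passed in either direction. Mrc1, the endocytic mannose receptor, was at 1031 and 1076 CPM after WT coculture and at 423, 475, and 401 CPM after Adam17-/- coculture. Its log2 fold change of -1.28 (SE 0.0920, edgeR adjusted p = 0.000145) was larger in size than that of any of the 10 receptors. The scavenger receptor gene Colec12 (-0.41) and Cd93 (-0.65), which are also abundant in these cells, fell, and the B cell and macrophage receptor gene Cd72 did not pass (0.18, edgeR adjusted p = 0.223). The Colec12 call held in 11 of 14 alternatives, and it was lost without Adam17-/- replicate 1 (edgeR adjusted p = 0.0627) and with limma on log2(FPKM + 0.1), at -0.26 (0.0563), or log2(FPKM + 1), at -0.26 (0.0569). Olr1 (LOX-1), a receptor for oxidized lipoprotein, had 24 and 13 counts in WT cocultures and 37, 63, and 60 in Adam17-/- cocultures (1.64, edgeR adjusted p = 0.0102).

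The choice of scaling bore on the smaller decreases. With library size only, the median over all genes was 0.16 (log2 fold change), and it was 0.15 with limma on log2(FPKM + 0.1) and 0.11 on log2(FPKM + 1), compared with 0.01 under TMM. On those scales the median of the 10 receptors was -0.17, -0.16, and -0.16, the receptors that fell numbered 3 (Clec4n, Clec4a2, and Clec10a), and those that rose remained 2. The share of passing genes with a higher level was 46.9% under TMM and 73.7% with library size only.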

How the data were processed

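The sample labels gave the groups, 2 BMDM libraries from WT and 3 from Adam17-/- cocultures. Poly-A libraries were sequenced paired-end on a BGISEQ-500 by the authors, who aligned the reads to GRCm38 with HISAT, and quantified transcripts with Bowtie2. The submitters' processing notes also name RSEM, and tool versions are not given in the sources used here. The deposited tables give each transcript's expected count, without normalization, and its FPKM, which the authors scaled for length and depth. Transcripts under 0.01 FPKM were not listed and were taken as 0.

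The rounded gene sums of the expected counts entered edgeR 4.0.16 under R 4.3.3 (TMM, filterByExpr, glmQLFit, glmQLFTest, no covariates), with Benjamini-Hochberg adjustment over 12576 genes. Levels are TMM-normalized CPM. Alternatives were DESeq2 1.42.0, other scalings, limma 3.58.1 on log2 FPKM with a pseudocount of 0.1 or 1, other filters on low counts, the replicate number as a block, and each library left out in turn. The fits were tested on simulated data first.

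Of 17058 gene IDs, 17015 matched a symbol, as did all 137 symbols of the gene lists. An item of the signaling list is not reported here. Replicates of a group differed by more than counting noise (chi-square per degree of freedom of 5.22 to 6.32 for Adam17-/- pairs and 25.7 for the WT pair). Gene positions and promoters came from RefSeq, and exons and gene strands from GENCODE. The receptors and lists were chosen with earlier results of these data known, so no pattern seen earlier is independent support. Named were all 10 receptors and, from the signaling, target, and other lectin lists, genes past the threshold with a log2 fold change of at least 1, the most abundant genes up to 4 a list, and Fcer1g, Tyrobp, Syk, Card9, Ptpn6, and Hcst. Genes named beyond this rule were chosen after their values were seen.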

Additional observations from a re-analysis of the deposited data

How the results depend on the processing

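Clec7a, Clec12a, Clec4n, and Clec4a2 passed in all 14 alternatives. Scaling by library size only gave 3 receptors that fell, with 3019 genes higher and 1077 lower, as against 1869 and 2114 under TMM. On log2 FPKM, limma gave 3 receptors that fell with either pseudocount, and 2927 genes higher and 1016 lower with 0.1, or 2867 and 1011 with 1. Leaving out each library in turn gave 2 to 6 receptors that fell and 0 to 1 called at a log2 fold change of 1 (0 without WT replicate 2, and Clec10a in place of Clec7a without Adam17-/- replicate 2), with 1089 to 2460 genes higher and 926 to 2940 lower. The lowest numbers of genes came without Adam17-/- replicate 1, and the highest without WT replicate 2. A fit without a WT library assumes that the lone WT library varies like the other group. With the replicate number as a block, 2 receptors fell (Clec4n and Clec4a2), the calls of Clec10a (-0.75, edgeR adjusted p = 0.0588), Clec4d (-0.35, 0.0969), and Clec4e (-0.43, 0.0564) were lost, and 1216 genes rose and 1126 fell. The labels give no shared source for the numbers, and deviations from the group means correlated at -0.12 and -0.05 for the same-numbered pairs, so the block was not used.

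Estimates near 0 changed sign. Clec5a was at 0.0492 (upper quartile), 0.14 (library size), 0.13 and 0.12 (limma, pseudocounts 0.1 and 1), and 0.0055 (at least 10 counts in every library). Clec4a3 was at 0.0778 (library size), 0.0796 and 0.0747 (limma), and 0.0223 with the replicate block. Card9 was at 0.0082 (upper quartile), 0.10 (library size), 0.11 and 0.11 (limma), and Hcst at -9.12e-05 (DESeq2) and -0.0893 (replicate block). With each library left out in turn, the range was -0.0761 to 0.0958 for Clec5a, -0.16 to 0.0382 for Clec4a3, -0.20 to 0.11 for Card9, -0.13 to 0.20 for Hcst, and -0.0599 to 0.14 for Prkcd. DESeq2 gave no adjusted p for Clec4b2 and Clec1a, which were left without a value there.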
